A study of Mus musculus with 8 samples.

Results

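The 9 genes described here encode the NF-kappaB transcription factor subunits Nfkb1, Nfkb2, Rel, Rela and Relb and 4 of the proteins that hold NF-kappaB activity back, Nfkbia, Nfkbid, Nfkbie and Tnfaip3. They were taken by symbol from a list of names and make up 9 of the 25124 genes in the deposited tables and 9 of the 19146 that passed the filter on low counts. RNA was sequenced from CD4 T cells that had been sorted from the spleens of mice carrying a green reporter for KLF2, a transcription factor of resting T cells, and a red reporter for FOXP3, the factor of regulatory T cells. All groups were sorted as FOXP3-negative and as CD44hi, a mark of T cells that have met antigen, and were kept for 48 h in culture. The groups were stimulated KLF2+ cells (replicates 1 and 2), unstimulated KLF2+ cells (1 and 2), stimulated KLF2- cells (3 and 4) and unstimulated KLF2- cells (3 and 4), with 2 libraries each. Stimulated cells received anti-CD3 antibody at 2.5 micrograms/mL together with anti-CD28 at 1.25 micrograms/mL, and unstimulated cells received neither. KLF2+ and KLF2- name the reporter gate, not a gene deletion. Whether replicates came from different animals or cultures is not in the labels, so the p-values reflect only how far these libraries differ, which can be technical.

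NF-kappaB is a family of dimers that bind kappaB motifs in DNA. In resting T cells inhibitor proteins of the IkappaB type keep most dimers in the cytoplasm, and signals from the T cell receptor and CD28 activate the IkappaB kinase complex, which marks the inhibitors for destruction. The freed dimers switch on genes of activation and survival, among them genes for their own inhibitors, so that the response limits itself.

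The exon reads and background of the libraries touch every value below. Exon reads numbered 21.0 M and 36.6 M in stimulated KLF2+ libraries and 8.27 M and 17.8 M in unstimulated KLF2+ libraries (M, mega), against 4.53 M and 2.99 M in stimulated KLF2- libraries and 7.34 M and 8.62 M in unstimulated KLF2- libraries. Aligned reads numbered between 33.9 M and 45.6 M in all libraries, so the libraries differed mainly in the share of reads in exons. That share was 62.0% and 80.3% in stimulated KLF2+ and 23.6% and 43.9% in unstimulated KLF2+ libraries. In KLF2- libraries it was 12.7% and 7.96% with stimulus and 18.1% and 19.5% without. Background, read from the density of reads over 1464 olfactory and vomeronasal receptor genes, made up between 0.401% and 20.1% of exon reads, most in stimulated KLF2- replicate 4. The 10 T cell markers summed to between 5231 and 7831 CPM in KLF2+ and between 2701 and 4231 CPM in KLF2- libraries (CPM, counts scaled to a common library size with TMM factors), and none was at 0 in any library. The 12 macrophage and monocyte markers summed to 58.8 and 102 CPM in stimulated KLF2+, 918 and 1734 CPM in unstimulated KLF2+, 30.1 and 51.4 CPM in stimulated KLF2- and 31.8 and 31.6 CPM in unstimulated KLF2- libraries, with 1 marker at 0 in each of 3 libraries. The 8 dendritic cell markers summed to between 44.3 and 65.7 CPM in KLF2+ libraries and between 128 and 169.8 CPM in KLF2- libraries. In bulk RNA, fewer cells of a type and less RNA per cell cannot be told apart. Scaling between libraries moved the centre of all log2 fold changes: with TMM factors taken from genes of at least 50 CPM, in place of all genes tested, the median of all genes became -0.75 in place of -0.25 for the response of KLF2+ cells and 0.45 in place of 0.06 for that of KLF2- cells. For KLF2+ against KLF2- cells it became -1.39 in place of -0.19 with stimulus and -0.39 in place of -0.11 without.

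All 9 genes were expressed in every library, at levels from 4.72 TPM for Rel to 379 TPM for Nfkbia. Levels between genes are given as TPM (transcript numbers scaled to a common total), which allows for transcript length; the lowest value of any of the 9 genes still exceeded 66.6% of the genes in its library. Nfkbia (chromosome 12, 55489409 to 55492647, minus strand, mm10), which encodes IkappaB alpha, the inhibitor made anew after each round of activation, was highest, with 279.8 and 379 TPM in stimulated KLF2+, 279.8 and 314 TPM in unstimulated KLF2+, 343 and 341 TPM in stimulated KLF2- and 314 and 309 TPM in unstimulated KLF2- libraries. Rela (chromosome 19, 5637541 to 5648134, plus strand), the main activating subunit, had 70.9 and 82.2 TPM in stimulated KLF2+, 120.3 and 111 TPM in unstimulated KLF2+, 100.3 and 109 TPM in stimulated KLF2- and 113 and 123 TPM in unstimulated KLF2- libraries. Rela was therefore lowest in the stimulated KLF2+ libraries, which lay below the other 6. Rel (chromosome 11, 23736850 to 23770969, minus strand), which encodes c-Rel, a subunit needed for Il2 expression and for regulatory T cell development in mice, was the lowest of the 9 genes in every library. It had 5.88 and 5.04 TPM in stimulated KLF2+, 10.3 and 4.72 TPM in unstimulated KLF2+, 18.8 and 19.4 TPM in stimulated KLF2- and 18.2 and 16.4 TPM in unstimulated KLF2- libraries. No KLF2+ library reached the lowest KLF2- library, as for 37.2% of all genes tested.

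Nfkb2 and Nfkb1 encode precursors that are cut to the DNA-binding subunits partnered with RelB and RelA. Nfkb2 (chromosome 19, 46304737 to 46312090, plus strand) had 53.8 and 64.3 TPM in stimulated KLF2+, 51.97 and 34.8 TPM in unstimulated KLF2+, 111 and 103 TPM in stimulated KLF2- and 81.2 and 85.8 TPM in unstimulated KLF2- libraries. It overlaps 4833438C02Rik on the other strand, which averaged 50.1 CPM, over 893 bases, and whether the counting used strand is not given in the sources used here. Nfkb1 (chromosome 3, 135584655 to 135691547, minus strand) had 13.7 and 14.04 TPM in stimulated KLF2+, 16.8 and 11.6 TPM in unstimulated KLF2+, 24.4 and 23.7 TPM in stimulated KLF2- and 20.4 and 17.5 TPM in unstimulated KLF2- libraries. Relb (chromosome 7, 19606223 to 19629438, minus strand), the subunit of the slower non-canonical pathway, had 38.2 and 42.4 TPM in stimulated KLF2+, 43.7 and 37.2 TPM in unstimulated KLF2+, 56.3 and 95.7 TPM in stimulated KLF2- and 71.1 and 89.0 TPM in unstimulated KLF2- libraries. Its stimulated KLF2- replicates stood furthest apart. On the TPM scale the KLF2- libraries lay above the KLF2+ libraries for each of these 3 genes, as they did for 37.2% of all genes tested.

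Among the other inhibitors, Nfkbid ran against that order. Nfkbid (chromosome 7, 30421731 to 30428746, plus strand) encodes an IkappaB protein of the nucleus that binds NF-kappaB on DNA and in mice aids Foxp3 induction through c-Rel. It had 28.7 and 37.3 TPM in stimulated KLF2+, 45.9 and 32.7 TPM in unstimulated KLF2+, 22.3 and 29.3 TPM in stimulated KLF2- and 20.8 and 21.2 TPM in unstimulated KLF2- libraries, so the populations overlapped by 1 library on each side. Nfkbie (chromosome 17, 45555700 to 45563168, plus strand), whose product IkappaB epsilon holds c-Rel and RelA dimers in the cytoplasm, had 25.3 to 37.5 TPM in the 4 KLF2+ libraries and 54.7 to 66.7 TPM in the 4 KLF2- libraries. Tnfaip3 (chromosome 10, 19000910 to 19015410, minus strand), which encodes a ubiquitin-editing enzyme that ends signalling upstream of the IkappaB kinases, had 34.0 to 55.4 TPM in KLF2+ and 62.5 to 91.6 TPM in KLF2- libraries. Such separation, seen for Nfkbie and Tnfaip3, was found for 37.2% of all genes tested. Nfkbia and Rela had the highest mean TPM in each group except stimulated KLF2- cells, where Nfkb2 (107 ± 5.84 TPM) and Rela (105 ± 6.20 TPM) lay within their spread (SD, n = 2). Nfkbid and Nfkbie changed places between the populations. Nfkbid averaged 33.0 ± 6.08 TPM in stimulated and 39.3 ± 9.32 TPM in unstimulated KLF2+ cells, beside 25.8 ± 0.627 and 33.8 ± 5.34 TPM for Nfkbie, gaps of about the spread. In KLF2- cells Nfkbid averaged 25.8 ± 4.97 TPM with and 21.0 ± 0.274 TPM without stimulus, well below the 60.7 ± 8.45 and 60.9 ± 0.172 TPM of Nfkbie.

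**Figure D1:**
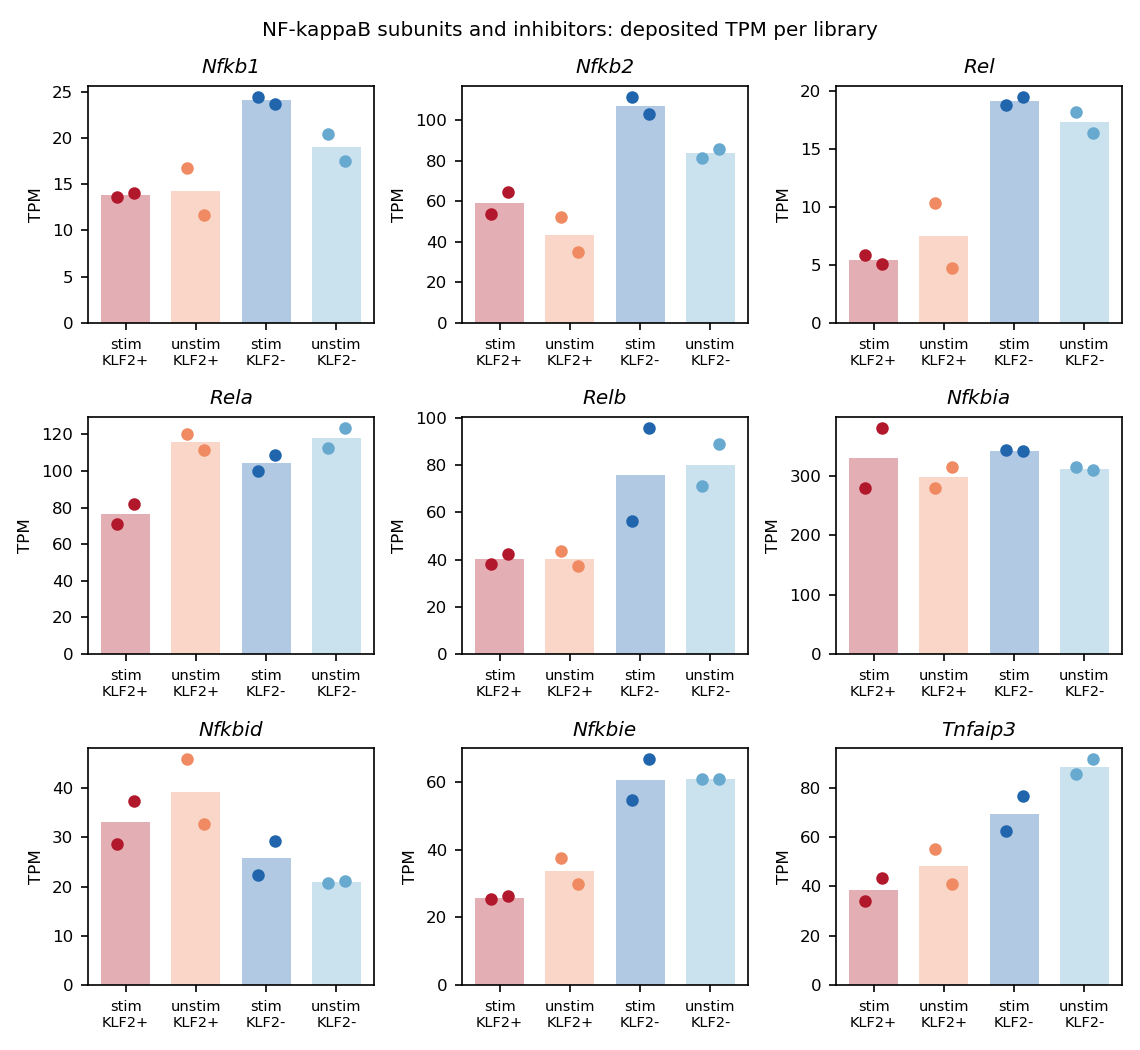
Deposited TPM (y axis, linear from 0, a different range for each gene) of the 9 genes in 4 groups (x axis), with a point for each library and a bar for the mean of 2 libraries. Rel, Nfkb1, Nfkb2, Relb, Nfkbie and Tnfaip3 lie lower in all 4 KLF2+ libraries than in all 4 KLF2- libraries, as do 37.2% of all genes tested. Nfkbid has its highest values, up to 45.9 TPM, in KLF2+ libraries.

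The 250 bases before the start of 4 of the genes are shown because these genes carry the differences described below: Nfkbid and Rel between the populations, and Nfkb2 and Nfkbia with stimulus. The sequences are from the RefSeq promoter table for GRCm38.p6, read 5′ to 3′ on the gene's strand, and capitals mark matches to the kappaB consensus on either strand. Nfkbid lies at chr7:30421481-30421730 (plus), Rel at chr11:23770970-23771219 (minus), Nfkb2 at chr19:46304487-46304736 (plus) and Nfkbia at chr12:55492648-55492897 (minus).
Nfkbid: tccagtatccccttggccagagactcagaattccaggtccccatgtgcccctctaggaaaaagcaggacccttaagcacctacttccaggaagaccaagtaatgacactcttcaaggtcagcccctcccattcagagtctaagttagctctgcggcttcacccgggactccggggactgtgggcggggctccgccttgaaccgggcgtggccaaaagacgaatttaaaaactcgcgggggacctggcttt
Rel: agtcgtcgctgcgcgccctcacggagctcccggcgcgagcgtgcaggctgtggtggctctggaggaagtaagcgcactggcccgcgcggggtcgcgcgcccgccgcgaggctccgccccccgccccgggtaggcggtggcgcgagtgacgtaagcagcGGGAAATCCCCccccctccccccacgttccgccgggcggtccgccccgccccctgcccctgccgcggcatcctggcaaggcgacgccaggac
Nfkb2: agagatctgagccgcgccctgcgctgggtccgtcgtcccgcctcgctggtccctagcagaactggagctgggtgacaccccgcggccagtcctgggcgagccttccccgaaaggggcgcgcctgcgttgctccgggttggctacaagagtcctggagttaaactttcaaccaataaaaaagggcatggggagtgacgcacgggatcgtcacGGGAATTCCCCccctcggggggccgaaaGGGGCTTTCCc
Nfkbia: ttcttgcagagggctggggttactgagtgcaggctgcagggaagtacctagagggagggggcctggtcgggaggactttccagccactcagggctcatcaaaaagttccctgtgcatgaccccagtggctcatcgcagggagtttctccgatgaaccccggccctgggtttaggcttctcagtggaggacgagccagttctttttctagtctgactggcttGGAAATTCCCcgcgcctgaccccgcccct
Windows of 7 of the 9 genes were matched by symbol and start, and 5 of the 7 held a match, against 7.28% of 32536 promoter windows of the same length. Nfkb2 held 3 matches, starting 39, 38 and 11 bases before its start, of which the first pair overlap, and Rel held 2 overlapping ones at 92 and 91 bases. Nfkbia held 1 match at 29 bases, Nfkbie 1 and Tnfaip3 2, and Nfkbid and Rela held none. A motif of the KLF family, CCNCNCCC on either strand, was present in 7 of the 7 windows, against 46.2% of all windows. Rel held 8 of these matches, of which 2 overlap its kappaB matches, and Nfkbid held 3. These counts describe letters in the windows and no binding was measured.

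Within the pool of subunit transcripts, the stimulated libraries of each population had a smaller share of Rela and a larger share of Nfkb2 than the unstimulated ones, differences that did not pass a test that could not reach 0.05. These shares are each gene's TPM over the summed TPM of the 5 subunit genes of the same library, so scaling between libraries does not enter. Rela made up 38.8% and 39.5% of the pool in stimulated KLF2+ libraries, against 49.5% and 55.8% in unstimulated KLF2+ libraries. In KLF2- cells its share was 32.3% and 31.1% with stimulus, against 37.1% in each unstimulated library. All stimulated libraries of a population lay below its unstimulated ones, with a mean difference of -9.44 percentage points (exact permutation test within population, two-sided p = 0.056, the smallest that 36 permutations can give; 0.139 after Benjamini-Hochberg adjustment over the 5 subunits). Nfkb2 held 29.5% and 30.9% of the pool in stimulated KLF2+ libraries against 21.4% and 17.4% in unstimulated ones, and 35.8% and 29.3% in stimulated KLF2- libraries against 26.8% and 25.8% in unstimulated ones. Its mean difference was 8.52 percentage points (exact p = 0.056; adjusted 0.139), and the 4 stimulated libraries lay above the 4 unstimulated ones. The shares of Relb and Rel differed by -0.036 and -0.069 percentage points with stimulus (exact p = 1.000 each).

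Between the populations, all KLF2+ libraries had a larger share of Rela and a smaller share of Rel than all KLF2- libraries, again without passing. The share of Rela ranged from 38.8% to 55.8% in KLF2+ and from 31.1% to 37.1% in KLF2- libraries, and that of Rel from 2.36% to 4.24% and from 4.94% to 6.04%, with no overlap for either gene. The mean differences were 11.5 and -2.56 percentage points (exact permutation test within condition, p = 0.056 for each, the smallest possible; adjusted 0.139 over 5 subunits). Nfkb1 held 6.74% of the pool in KLF2+ and 6.65% in KLF2- libraries on average (exact p = 0.889). Nfkb2 and Relb averaged 24.8% and 19.5% in KLF2+ against 29.4% and 23.9% in KLF2- libraries, with overlapping ranges (exact p = 0.167 each).

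**Figure D2:**
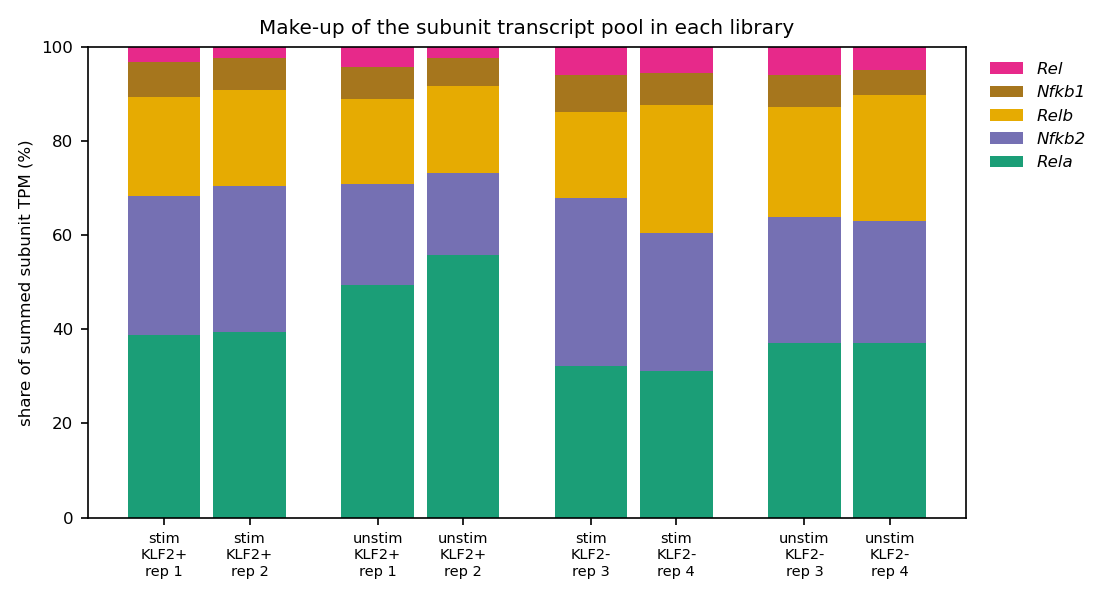
Share of each subunit gene in the summed TPM of the 5 subunit genes (y axis, %), 1 stacked bar for each of the 8 libraries (x axis). The Rela segment is largest in the unstimulated KLF2+ libraries, at 49.5% and 55.8%, and the Rel segment is 6.04% or less in every library.

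Stimulation raised Nfkb2 in KLF2+ cells. Nfkb2 stood at 254 and 308 CPM in stimulated KLF2+ libraries, against 131 and 121 CPM in unstimulated ones, and its log2 fold change of 1.16 ± 0.22 (SE, 2 libraries in each group) passed the quasi-likelihood test of edgeR at an adjusted p of 0.0052 (Benjamini-Hochberg, 19146 genes). It stayed positive in each of 16 alternatives, from 0.46 to 1.30, and passed in 13. The call was lost in limma on log2(TPM + 1) or log2(TPM + 0.1) and on leaving out replicate 2 of stimulated KLF2+ cells (1.02, adjusted p = 0.061), and the value was 0.64 under the 50 CPM scaling. Of the 12 macrophage and monocyte markers above, 10 were called lower in stimulated than in unstimulated KLF2+ cells and 0 had a positive log2 fold change. The part of these markers in the values of Nfkb2 was not tested.

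Nfkbia, Relb and Nfkb1 also passed as higher in stimulated KLF2+ cells with TMM scaling, which made 4 of the 9 genes, against 37.1% of all genes called in either direction and 19.7% called higher. Nfkbia had 686 and 942 CPM with stimulus against 366 and 566 CPM without (0.80 ± 0.28, adjusted p = 0.046). Relb had 129.9 and 146 CPM against 79.4 and 93.0 CPM (0.68 ± 0.23, adjusted p = 0.043), and Nfkb1 87.2 and 90.7 CPM against 57.2 and 54.6 CPM (0.67 ± 0.19, adjusted p = 0.024). The stimulated libraries lay above the unstimulated ones for each of the 3 genes, as for 35.2% of all genes. Under the 50 CPM scaling these values were 0.33, 0.18 and 0.16 and none passed, and in limma on TPM those of Relb and Nfkb1 were within 0.02 of 0 and negative. The count of 4 became 1 on leaving out replicate 1 of stimulated or of unstimulated KLF2+ cells or either unstimulated KLF2- library, and 0 on leaving out replicate 2 of stimulated KLF2+ cells, where 10.4% to 36.9% of all genes were called.

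The remaining 5 genes did not pass in KLF2+ cells. Nfkbid had 89.7 and 118 CPM with stimulus against 76.4 and 75.0 CPM without (0.46 ± 0.19, adjusted p = 0.083). Tnfaip3, Nfkbie and Rel had log2 fold changes of 0.39, 0.30 and 0.30, and Rela of 0.08 with a 95% interval of -0.40 to 0.56. All 5 turned negative under the 50 CPM scaling, with Nfkbid at -0.058, Tnfaip3 at -0.13, Nfkbie at -0.20, Rel at -0.25 and Rela at -0.42, of which Rela was called as lower (adjusted p = 0.044), and they were also negative with background correction and in both limma fits. The median of the 9 genes was 0.46, beside -0.25 for all genes tested.

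No gene of the 9 passed in KLF2- cells, and neither did any of the 19146 genes tested (0%) by the quasi-likelihood test of edgeR with Benjamini-Hochberg adjustment. At an unadjusted p under 0.05 the same test gave 3 of the 9 genes and 2802 of all genes, DESeq2 called 74 genes and limma 3 and 5, of which 0 were among the 9. Tnfaip3 had 175 and 178 CPM in stimulated KLF2- libraries against 282 and 311 CPM in unstimulated ones (log2 fold change -0.75 ± 0.21, unadjusted p = 0.00496, adjusted p = 0.268). Rela had 169 and 152 CPM against 223 and 252 CPM (-0.56 ± 0.22, adjusted p = 0.300), and for both genes the stimulated libraries lay below the unstimulated ones, as for 30.2% of all genes. Both stayed negative in 16 of 16 alternatives. Nfkb2, the gene raised in KLF2+ cells, had 214 and 164 CPM in stimulated KLF2- libraries against 184 and 200.3 CPM in unstimulated ones. With TMM scaling its 95% interval of -0.50 to 0.45 did not reach the 1.16 ± 0.22 of KLF2+ cells. Its sign was kept in only 8 of 16 alternatives. Under the 50 CPM scaling it was at 0.35 in KLF2- and 0.64 in KLF2+ cells, and the difference of 0.28 did not pass.

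Nfkbid was higher in KLF2+ than in KLF2- cells under both conditions. It had 89.7 and 118 CPM in stimulated KLF2+ libraries against 28.4 and 30.9 CPM in stimulated KLF2- libraries, with a log2 fold change of 1.81 ± 0.20 (adjusted p = 0.00027). Without stimulus it had 76.4 and 75.0 CPM in KLF2+ against 31.1 and 32.7 CPM in KLF2- libraries, and the log2 fold change was 1.25 ± 0.20 (adjusted p = 0.0125). The 4 KLF2+ libraries lay between 75.0 and 118 CPM and the 4 KLF2- libraries between 28.4 and 32.7 CPM, a separation upward that 17.8% of all genes showed, and 26.2% showed it among the unstimulated libraries alone. Averaged over both conditions, a comparison added after the data were seen, the log2 fold change was 1.53 ± 0.14 (adjusted p = 0.00021); it was positive and passed in 15 of 15 alternatives, from 0.60 to 1.66. By condition the size depended on scaling: 0.61 with stimulus (adjusted p = 0.038) and 0.96 without (adjusted p = 0.070) when scaled from genes of at least 50 CPM. The call with stimulus held in 12 of 15 alternatives and was lost with background correction (0.63, adjusted p = 0.053) and in limma on log2(TPM + 1) or log2(TPM + 0.1) (0.35 and 0.36, adjusted p = 0.155 each). The call without stimulus held in 9 of 15 and was also lost with background correction (0.99, adjusted p = 0.061), in limma on log2(TPM + 0.1) (0.88, adjusted p = 0.051) and on leaving out replicate 2 of unstimulated KLF2+ cells (1.26, adjusted p = 0.077) or replicate 3 or 4 of unstimulated KLF2- cells (1.22 and 1.29, adjusted p = 0.215 and 0.165). The macrophage and monocyte markers stood at 58.8 and 102 CPM in stimulated KLF2+ against 30.1 and 51.4 CPM in stimulated KLF2- libraries. Without stimulus these markers had 918 and 1734 CPM in KLF2+ against 31.8 and 31.6 CPM in KLF2- libraries, and their part in either difference was not tested.

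Rel was lower in KLF2+ cells when the conditions were averaged. It had 68.4 and 59.4 CPM in stimulated KLF2+ against 89.0 and 76.2 CPM in stimulated KLF2- libraries, and 63.9 and 40.3 CPM in unstimulated KLF2+ against 101 and 94.2 CPM in unstimulated KLF2- libraries. The 4 KLF2+ libraries lay below the 4 KLF2- libraries, as for 23.3% of all genes. The averaged log2 fold change was -0.64 ± 0.17 (SE, 4 libraries per population; adjusted p = 0.0078 by the quasi-likelihood test of edgeR), and it was negative and passed in 15 of 15 alternatives, from -1.54 to -0.47. In that comparison 37.3% of all genes were called lower with TMM scaling and 55.5% under the 50 CPM scaling. With background correction 37.7% were, and in the limma fits 61.5% and 62.8%. In single conditions Rel did not pass: -0.37 ± 0.24 with stimulus (adjusted p = 0.176) and -0.91 ± 0.24 without (adjusted p = 0.095), where the medians of all genes were -0.19 and -0.11. Rel was the gene with the largest share of background reads, up to 18.8% in stimulated KLF2- replicate 4 and 11.3% in unstimulated KLF2+ replicate 1. Its log2 fold change was -1.50 with stimulus and -1.24 without after background correction, where the medians of all genes were -0.47 and -0.21. Under the 50 CPM scaling that this correction also uses Rel was at -1.56 and -1.17, and the medians of all genes were -1.39 and -0.39. Dendritic cell markers moved with this difference: Flt3 had 4.49 to 12.1 CPM in KLF2+ and 35.9 to 60.1 CPM in KLF2- libraries, 6 of 7 tested markers were lower in KLF2+ cells, Itgax was higher, and Clec9a was at 0 in stimulated KLF2+ replicate 2 and reached 1.29 CPM elsewhere. Their part in the level of Rel was not tested.

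In the averaged comparison Rela and Nfkbia also passed with TMM scaling, at 0.67 ± 0.15 (adjusted p = 0.0041) and 0.85 ± 0.20 (adjusted p = 0.0042), so that 3 of the 9 genes were higher and 1 lower, against 32.9% and 37.3% of all genes (70.2% called in all). Neither direction held in every alternative. Rela was at -0.085 with genes of at least 50 CPM and at -0.24 in limma on log2(TPM + 1). Nfkbia was positive in 13 of 15 alternatives and passed in 11, and was at -0.070 in limma.

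With stimulus, 7 of the 9 genes passed as higher in KLF2+ than in KLF2- cells, but 6 of these 7 turned negative on at least 1 of the other scales. The background was high, with 75.2% of all genes called and 35.5% called higher. Besides Nfkbid, these were Nfkbia (1.38 ± 0.28, adjusted p = 0.0020), Rela (0.99 ± 0.22, adjusted p = 0.0029), Nfkb1 (0.64), Tnfaip3 (0.60), Nfkb2 (0.57) and Relb (0.56). Nfkbia had 686 and 942 CPM in stimulated KLF2+ against 342 and 282 CPM in stimulated KLF2- libraries, and Rela 293 and 344 CPM against 169 and 152 CPM. The 50 CPM scaling gave Tnfaip3 -0.60, Nfkb2 -0.61, Nfkb1 -0.55 and Relb -0.67, each called as lower, with Nfkbie at -0.99 and Rel at -1.56, also called. On that scale the median of all genes was -1.39, and each of the 9 genes except Rel lay above it, as each except Rel lay above the median of -0.19 with TMM scaling. The count of 7 became 4 without stimulated KLF2+ replicate 1 or either unstimulated KLF2- replicate, 3 without stimulated KLF2+ replicate 2, and 6 and 5 without stimulated KLF2- replicates 3 and 4, where 57.5% to 69.0% of all genes were called.

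Without stimulus Nfkbid was the only 1 of the 9 genes to pass with TMM scaling, against 2.32% of all genes called and 1.07% called higher. Under the 50 CPM scaling Nfkbid did not pass (edgeR adjusted p = 0.070). Nfkb2 (-0.90, adjusted p = 0.038) and Nfkbie (-0.79, adjusted p = 0.040) passed as lower there, against 0.663% of all genes called higher and 1.75% lower. The values that follow are with TMM scaling. Relb had 79.4 and 93.0 CPM in unstimulated KLF2+ against 116 and 149.6 CPM in unstimulated KLF2- libraries (-0.62 ± 0.23, adjusted p = 0.197), and Nfkb2 131 and 121 CPM against 184 and 200.3 CPM (-0.61 ± 0.21, adjusted p = 0.180). Tnfaip3 and Nfkbie had log2 fold changes of -0.53 ± 0.21 and -0.49 ± 0.17 (adjusted p = 0.212 and 0.180). For these 4 genes both KLF2+ libraries lay below both KLF2- libraries, as for 32.8% of all genes, and the sign was negative in 15 of 15 alternatives for each. Nfkb1 differed by -0.07, with a 95% interval of -0.50 to 0.35, and Rela and Nfkbia by 0.35 and 0.33, with the same sign in 12, 13 and 10 of 15 alternatives. These 2 comparisons between populations share libraries with the responses described above.

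**Figure D3:**
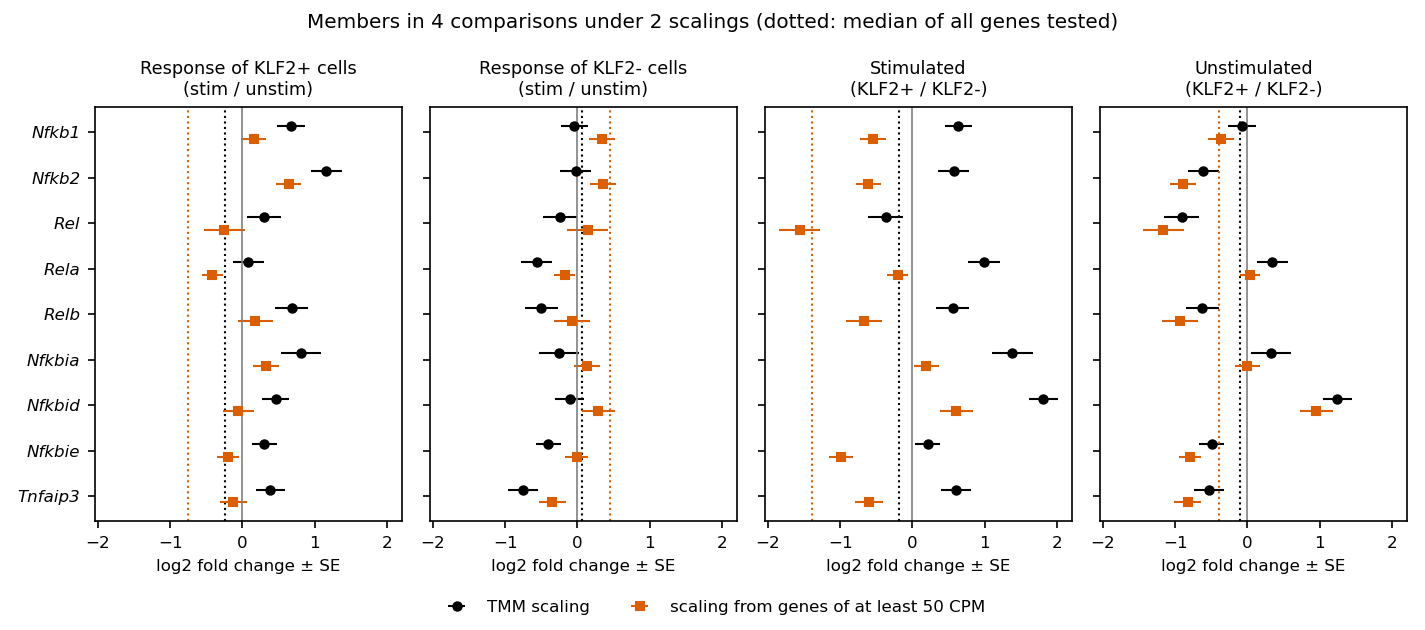
Log2 fold change ± SE (x axis) of the 9 genes (y axis) in 4 comparisons of 2 against 2 libraries, with TMM scaling (black circles) and under the 50 CPM scaling (orange squares). Dotted lines mark the median of all genes tested on each scale, at -0.19 and -1.39 for the stimulated comparison, and Nfkbid lies right of 0 on both scales in both comparisons between populations.

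Ratios to Rela within a library, which no scaling between libraries can move, set the remaining genes beside each other. The Rel to Rela ratio was 0.083 and 0.061 in stimulated KLF2+, 0.086 and 0.042 in unstimulated KLF2+, 0.187 and 0.178 in stimulated KLF2- and 0.161 and 0.133 in unstimulated KLF2- libraries. The KLF2+ ratio was 0.401 times the KLF2- ratio (exact permutation test within condition, p = 0.056, the smallest possible; 0.074 after Benjamini-Hochberg adjustment over 16 ratios), and 0.417 times after background correction. Nfkbie, Relb and Tnfaip3 relative to Rela were 0.573, 0.623 and 0.646 times as high in KLF2+ as in KLF2- cells, each without overlap and each with the same p. Separation of all 4 KLF2+ below all 4 KLF2- libraries, seen in these 3 genes and in Rel, was found for 33.7% of all genes. Nfkbid to Rela ranged from 0.294 to 0.454 in KLF2+ and from 0.172 to 0.269 in KLF2- libraries, 1.82 times as high and without overlap, and separation upward was found for 2.79% of all genes. Nfkbia to Rela differed by 1.12 times, with overlap (exact p = 0.278).

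With stimulus, Nfkbia, Nfkb2, Nfkb1, Nfkbid and Nfkbie were higher relative to Rela in both populations. The Nfkbia to Rela ratio was 3.95 and 4.62 in stimulated KLF2+ against 2.33 and 2.82 in unstimulated KLF2+ libraries, and 3.42 and 3.13 in stimulated KLF2- against 2.79 and 2.50 in unstimulated KLF2- libraries. All 4 stimulated libraries lay above the 4 unstimulated ones, a mean of 1.44 times as high (exact p = 0.056; adjusted 0.074). The Nfkb2 to Rela ratio was 0.760 and 0.782 against 0.432 and 0.313 in KLF2+ libraries, and 1.11 and 0.943 against 0.721 and 0.696 in KLF2- libraries, 1.74 times as high with stimulus (exact p = 0.056; adjusted 0.074). Such separation upward was found for 8.47% of all genes. Nfkb1, Nfkbid and Nfkbie relative to Rela were 1.47, 1.33 and 1.14 times as high with stimulus (exact p = 0.056; adjusted 0.074 for each). For these genes the 4 stimulated libraries overlapped the 4 unstimulated ones. Relb and Rel relative to Rela differed by 1.25 and 1.22 times (exact p = 0.167 and 0.333). Tnfaip3 to Rela differed by 1.04 times with stimulus (exact p = 0.778). As Rela itself had fewer TPM in stimulated cells of each population, these ratios show unequal change and not which gene moved.

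**Figure D4:**
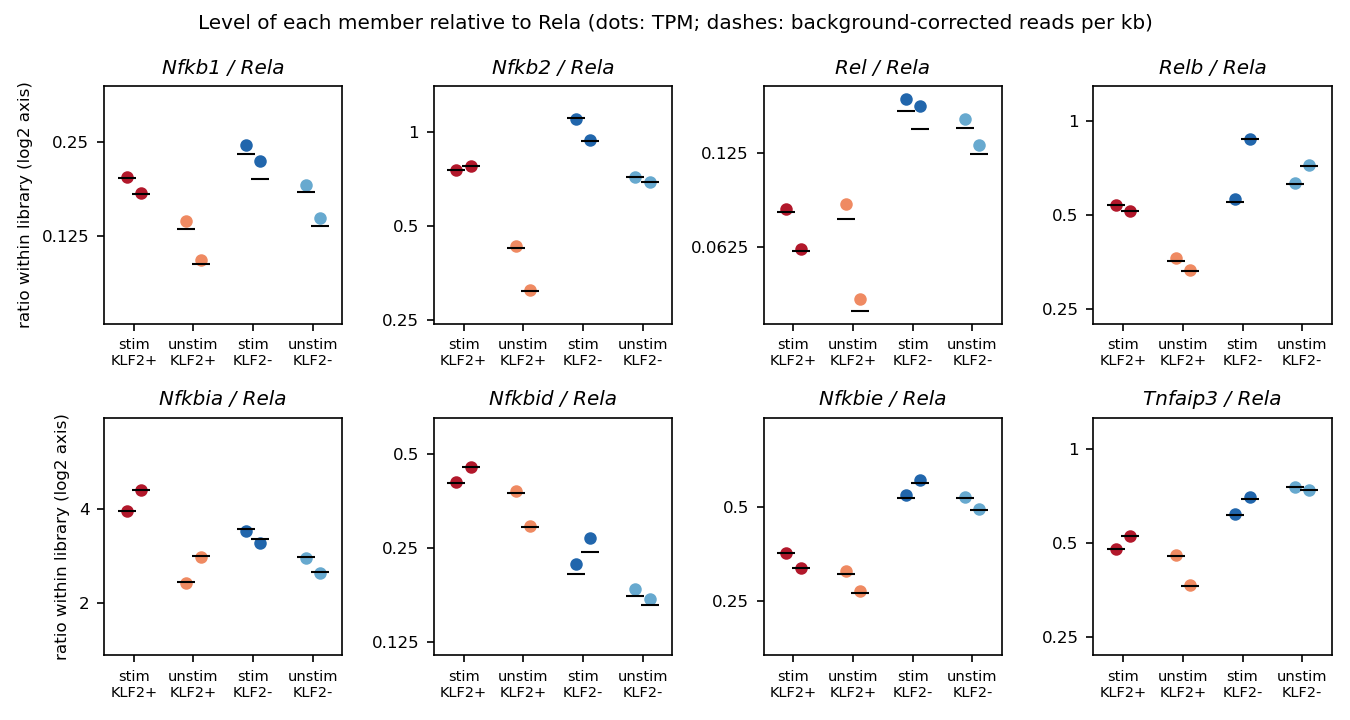
Ratio of each of 8 genes to Rela within a library (y axis, log2 scale) in 4 groups (x axis), with points from TPM and dashes from background-corrected reads per kb. Rel, Relb, Nfkbie and Tnfaip3 lie lower in the 4 KLF2+ libraries and Nfkbid lies higher, while Nfkbia and Nfkb2 lie higher in the 4 stimulated libraries.

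The response of KLF2+ cells minus that of KLF2- cells was positive and passed for 4 of the 9 genes with TMM scaling, against 35.8% of all genes called and 20.3% called higher. These were Nfkb2 (1.18 ± 0.30, adjusted p = 0.023), Relb (1.18 ± 0.32, adjusted p = 0.027), Tnfaip3 (1.14 ± 0.29, adjusted p = 0.024) and Nfkbie (0.71 ± 0.25, adjusted p = 0.048). None of the 4 passed under the 50 CPM scaling, where the values were 0.28, 0.26, 0.22 and -0.19, with background correction, or in limma on TPM. The count was also 0 without stimulated KLF2+ replicate 2, unstimulated KLF2+ replicate 1 or either unstimulated KLF2- replicate, where 8.88%, 2.04%, 0.366% and 0.346% of all genes were called.

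Among 53 other genes of the pathway, the largest responses in KLF2+ cells were those of target genes and of Bcl3. Of 11 other inhibitors and regulators, 4 rose and 0 fell with TMM scaling, where 19.7% of all genes were called higher and 17.4% lower, and 4 rose and 3 fell under the 50 CPM scaling, where 11.3% and 29.6% were. Bcl3, a nuclear IkappaB protein that can also act as a coactivator with the Nfkb1 and Nfkb2 products, rose by 2.72 ± 0.22 (log2; adjusted p = 0.00019). Commd1, which promotes removal of RelA, rose by 1.84 ± 0.30, Otulin, which removes linear ubiquitin chains, by 1.20 ± 0.27, and Nfkbib, which encodes IkappaB beta, by 1.02 ± 0.21. Of 20 known targets, 10 rose and 0 fell with TMM scaling, and 8 rose and 4 fell under the 50 CPM scaling, beside the same shares of all genes. Irf4, an activation factor, rose by 4.09 ± 0.66, the costimulatory receptor genes Tnfrsf4 and Tnfrsf9 by 3.87 ± 0.48 and 3.02 ± 0.26, and Gadd45b by 1.68 ± 0.23. These 4 targets, Bcl3 and Commd1 stayed positive and passed in each of 16 alternatives. The 4 targets were named for the smallest p. Il2ra had the largest log2 fold change of the 20, 4.81 (edgeR adjusted p = 0.0049), and passed in 15 of 16 alternatives. With TMM scaling 16 of the 20 were positive. Il2 was at -1.64 (edgeR adjusted p = 0.058), and at -2.13 and called lower under the 50 CPM scaling. The median was 1.20 over the targets and 0.23 over the other inhibitors, beside -0.25 over all genes.

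Upstream genes were called in both directions in KLF2+ cells, where 19.7% of all genes were called higher and 17.4% lower with TMM scaling. Of 11 kinases and their partners, Map3k7 rose (0.86 ± 0.24) and Ikbke and Ikbkb fell (-1.14 ± 0.22 and -0.68 ± 0.21). Of 11 genes of TRAF adaptors and ubiquitin enzymes, Ube2n, Ube2v1 and Birc3 rose (1.53 ± 0.34, 1.09 ± 0.24 and 0.84 ± 0.20) and Traf5 fell (-0.63 ± 0.22). All these directions were the same under the 50 CPM scaling, where Map3k7 and Birc3 did not pass. Tab1 (-0.999), Map3k14 (-0.66) and Sharpin (-0.49), not called with TMM scaling, passed as lower on that scale. There 11.3% of all genes were called higher and 29.6% lower. In KLF2- cells 0 of the 53 genes passed, as for all genes.

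Between stimulated KLF2+ and KLF2- cells, 38 of the 53 genes passed as higher and 1 as lower with TMM scaling, beside 35.5% and 39.7% of all genes. Under the 50 CPM scaling 12 passed as higher and 16 as lower, beside 11.9% and 58.3%. The genes with the smallest p were Bcl3 (3.00 ± 0.22) and Commd1 (2.42 ± 0.32) among the inhibitors, Tnfrsf4 (3.36 ± 0.47), Tnf (2.34 ± 0.28), Tnfrsf9 (2.21 ± 0.25) and Ccnd2 (2.18 ± 0.32) among the targets, and Ube2n (2.19 ± 0.35) and Ube2v1 (2.01 ± 0.25) among the ubiquitin enzymes. These 8 genes were positive and passed under the 50 CPM scaling too. Next by p among the inhibitors came Nfkbib (1.64) and Otulin (1.76), at 0.44 and 0.59 under the 50 CPM scaling and also called. Next on the list of ubiquitin enzymes came Rbck1 (1.12) and Sharpin (1.25), at -0.07 and 0.05 on that scale, where neither passed. The kinase genes did not keep their direction: Tbk1, Ripk1, Map3k7 and Chuk were at 1.02, 1.12, 1.15 and 0.79 with TMM scaling and at -0.17, -0.05, -0.01 and -0.42 on the other scale. The T cell markers were 10 of 10 higher in stimulated KLF2+ cells with TMM scaling, and their part in these values was not tested. Without stimulus 3 of the 53 genes passed, all of them targets: Tnf was higher in KLF2+ cells (1.44 ± 0.27), and Cd83 and Tnfrsf9 were lower (-2.02 ± 0.34 and -1.44 ± 0.25). Of all genes, 1.07% were called higher and 1.25% lower there. Under the 50 CPM scaling 0 of the 53 passed as higher and 4 as lower, beside 0.663% and 1.75% of all genes. In the difference of the responses Bcl3 (3.09 ± 0.30) and Tnfrsf9 (3.65 ± 0.36) were positive and passed in each of 16 alternatives.

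The genes whose pattern over the 8 libraries was most like that of each of the 9 genes were named by the root mean square difference of centred log2 CPM among 9977 genes. For Rela these were Ctdp1, Rbck1 and Pcif1, at 0.050 to 0.065, the closest matches found, and Rbck1 is a subunit of the linear ubiquitin ligase on the pathway list. Rel was matched by Lrrc8b, Mgat4a and Cd274 (0.10 to 0.17), Nfkbid by Capn2, Zyx and Themis2 (0.17 to 0.18) and Nfkb2 by Atf3, Man1a and Ctnna1 (0.12 to 0.13). Nfkbia was matched by Dnttip1, Ovca2 and Eif2d (0.10 to 0.11), Nfkb1 by Dhx33, Cand1 and Slmap (0.064 to 0.084), Relb by Sepsecs, Phkb and Ick (0.13 to 0.15), Nfkbie by Fcsk, Tyk2 and Kremen1 (0.092 to 0.11) and Tnfaip3 by Ick, Nfe2l1 and Pik3r2 (0.10 to 0.13). Nfkbid had the widest spread of its own over the libraries, an SD of 0.83 log2 units, and Nfkbie the narrowest, 0.21. These are descriptions over 8 libraries that share the groups and the differences in exon reads given above.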

How the data were processed

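Per the file headers, the authors ran HOMER to count exon reads and deposited estimated counts (multiples of 0.5) and TPM values for the same 8 libraries, with mm10 exon coordinates. The TPM sums were 503794 to 523430 per library. STAR 2.7.9, HOMER 4.11, SAMtools and DESeq2 are named in the submitters' processing notes; how strand and read filters were handled is not given in the sources used here. Estimated counts were rounded and fitted with filterByExpr and TMM scaling in edgeR 4.0.16 under R 4.3.3 with 1 coefficient per group (4 residual degrees of freedom). Contrasts used the quasi-likelihood F test with Benjamini-Hochberg adjustment over 19146 genes, and an adjusted p under 0.05 was a call. SE was the absolute log2 fold change over the square root of F. All CPM, markers included, carry these TMM factors.

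Alternatives were RLE factors, DESeq2 1.42.0, no filter, TMM factors from genes of at least 50 CPM, background correction (receptor reads per kb, over 1683.9 kb, times exon length subtracted, then that scaling), limma 3.58.1 on log2(TPM + 1) and log2(TPM + 0.1), each library left out, and the replicate number as a block. Shares and ratios within libraries were tested by exact two-sided permutation. The 9 genes, the 53 genes of 4 other pathway lists and the markers were chosen with earlier results of these data known. Of each pathway list, up to 4 called genes with the smallest p were named; a further list is not reported here. For each of the 9 genes, the 3 genes of at least 10 CPM with the smallest distance were named, passing over unnamed gene models and small RNA genes. The fit was tested on simulated data with large changes planted in genes of at least 10 CPM and the same spread for every gene. In the response of KLF2+ cells it recovered 100% of 200 changed genes among 18329, with 11 false calls. The recovered log2 fold changes averaged 1.99 upward and -2.03 downward. Smaller changes, and differences in background or make-up between libraries, were not simulated.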

Additional observations from a re-analysis of the deposited data

Results flagged for a closer look

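The response to stimulus differed between the populations for 4 of the 9 genes by the interaction term of the edgeR fit with TMM scaling, which called 35.8% of all genes and 20.3% as higher. Given as the log2 response of KLF2+ cells minus that of KLF2- cells, the values were 1.18 for Nfkb2, 1.18 for Relb, 1.14 for Tnfaip3 and 0.71 for Nfkbie. In KLF2+ cells the log2 fold changes were 1.16, 0.68, 0.39 and 0.30, and in KLF2- cells -0.02, -0.50, -0.75 and -0.40, in the same order. When the scaling was taken from genes of at least 50 CPM the differences were 0.28, 0.26, 0.22 and -0.19 and none passed, while the median of all genes became -1.003 in place of -0.09. Which scaling fits these libraries was not tested.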

How the results depend on the processing

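The count of the 9 genes called in the response of KLF2+ cells was 4 with TMM scaling and 2 with RLE factors. It was 2 when scaled from genes of at least 50 CPM, 2 with background correction and 1 in each limma fit. Of all genes, 36.2% were called with RLE factors, and 40.9%, 29.1%, 24.4% and 40.8% in the other settings in that order. The 2 genes called under the 50 CPM scaling and with background correction were Nfkb2 as higher and Rela as lower. With stimulus (7 of 9) it ran from 3 to 7 with 1 library left out. Without stimulus (1 of 9) it was 2 when scaled from genes of at least 50 CPM and 2 with background correction. It was 5 in limma on log2(TPM + 1) and 4 on log2(TPM + 0.1). Of all genes, 2.41%, 4.02%, 4.47% and 3.89% were called in these settings. The 2 genes called under the 50 CPM scaling and with background correction were Nfkb2 and Nfkbie, both as lower, and Nfkbid did not pass there. For the difference in response (4 of 9) it was 0 under each of the 50 CPM scaling, background correction and both limma fits, and 0 to 6 with 1 library left out. For the averaged comparison (4 of 9), whose alternatives were all chosen after seeing the data, it was 7, 7, 8 and 8 under those 4 settings. Of all genes, 65.8%, 51.3%, 69.6% and 70.8% were called there. These counts pool both directions. With TMM scaling 3 genes were called higher and 1 lower. Under those 4 settings Nfkbid stayed positive, while Rel, Nfkbie, Nfkb1, Nfkb2, Rela, Relb and Tnfaip3 were negative. Under the 50 CPM scaling 10.4% of all genes were called higher and 55.5% lower. For the 9 genes the response of KLF2- cells gave 0 under every alternative run.

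Of 837 values, 52 that were called in one of the fits compared reversed, all in 4 settings, and 89 called in neither changed sign, 59 of them in those 4 settings. The reversed values are given as log2 fold changes in the order 50 CPM scaling, background correction, limma with TPM + 1 and with TPM + 0.1. In the response of KLF2+ cells Rela was at -0.42, -0.45, -0.59 and -0.60, and in the limma fits Nfkb1 was at -0.015 and -0.014 and Relb at -0.0029 and -0.0029. With stimulus Nfkb1 was at -0.55, -0.51, -0.75 and -0.79, Nfkb2 at -0.61, -0.71, -0.85 and -0.86, Rela at -0.21, -0.31, -0.45 and -0.45, Relb at -0.67, -0.77, -0.85 and -0.86, Nfkbie at -0.99, -1.07, -1.20 and -1.23 and Tnfaip3 at -0.60, -0.69, -0.83 and -0.85, and Nfkbia was at -0.070 and -0.070 in the limma fits. In the difference in response Nfkbie was at -0.19, -0.25, -0.36 and -0.37. In the averaged comparison Nfkb1 was at -0.46, -0.44, -0.58 and -0.61, Rela at -0.085, -0.15, -0.24 and -0.24 and Tnfaip3 at -0.71, -0.77, -0.86 and -0.87, and Nfkbia at -0.070 and -0.070 in the limma fits. The cause was not tested.

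Stimulated and unstimulated libraries of a population share replicate numbers. Same-numbered libraries deviated together (correlation over 10395 genes of 0.65 in KLF2+ and 0.26 in KLF2- cells), but with 2 pairs each this does not establish pairing. With the number as a block, 4 of the 9 genes were called in the response of KLF2+ cells, 0 in that of KLF2- cells and 4 in the difference, beside 56.7%, 4.02% (770 genes) and 56.7% of all genes, against 37.1%, 0% and 35.8% without it. Stimulated KLF2- libraries, with 234.5 reads for Nfkb1 and 142 for Nfkbid at the least, limit the precision of every comparison that uses them.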
